A study of Drosophila melanogaster with 3 samples.

Results

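The small nuclear RNA (snRNA) genes of Drosophila melanogaster, the gene of 7SK RNA and the genes named small non-messenger RNA (snmRNA) were taken from the deposited expression tables by symbol. A gene was a member when its symbol began with snRNA:, snmRNA: or scaRNA:. This rule found 62 of the 13990 genes, made up of 28 snRNA genes, 34 snmRNA genes and 0 genes with a scaRNA symbol. Copies were grouped by the RNA named in the symbol, and snmRNA:331 is the gene of 7SK, now called snRNA:7SKa. The U1, U2, U4, U5 and U6 snRNAs of the major spliceosome accounted for 21 members, and the U11, U12, U4atac and U6atac snRNAs of the minor spliceosome for 5. U3 and U7 had 1 gene each. Among the 34 snmRNA genes were 7SK, 17 copies of snmRNA:430 and 16 others.

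The spliceosome is built from snRNAs that pair with the splice sites and with each other, each carried in a ribonucleoprotein particle. RNA polymerase II makes U1, U2, U4, U5, U11, U12, U4atac and U7, which receive a ring of Sm or Sm-like proteins after export, while RNA polymerase III makes U6, U6atac and 7SK. U7 directs the cleavage of replication-dependent histone pre-mRNAs, U3 acts in pre-ribosomal RNA processing, and 7SK holds the elongation kinase P-TEFb in an inactive particle. Most of these RNAs are short and have no poly(A) tail, and some come from several similar genes.

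RNA was sequenced in 3 libraries of wandering larvae, 1 library per group. The control carried the Actin5C-Gal4 driver, which is active in most tissues, and no hairpin (Act>control). In the RNAi library this driver was combined with a UAS hairpin against Aac11, the fly gene for Apoptosis inhibitor 5 (Act>Aac11-RNAi). The third library, called here the Yki library, is labelled enGFP+Yki+Aac11-IR. This label names GFP with the prefix en, Yorkie and the same hairpin. It does not name the Act driver or say what the prefix stands for. Both Act genotypes were pools of 10 to 20 GFP-sorted larvae, while no number of animals was stated for the Yki library. Cultures were kept at 25 degrees Celsius under 12 hours of light a day, and each library was made from 4 µg of total RNA after depletion of ribosomal RNA. With 1 pool per group there is no replicate check, so no p-value or standard deviation exists for any difference.

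Expression was given as FPKM, a fragment number divided by transcript length and by library size. Both Act libraries stand in 1 table and the Yki library in another, so levels in the Yki library are set beside the others and no fold change is formed between the tables. Depth, read from the spacing of low FPKM values and given in units of 1000000 fragments, was 6.04 in the control, 31.3 under RNAi and 17.7 in the Yki library. The targeted gene, Aac11, measured 150 FPKM in the control, 78.1 under RNAi and 117 in the Yki library, where yki itself reached 4153 FPKM against 64.3 and 59.7 in the Act libraries. The labels call the material wing disc cells, whereas the protocol describes whole ground larvae. All 11 wing disc markers were above 0 in all 3 libraries, with summed levels of 294, 361 and 684 FPKM in the control, RNAi and Yki libraries. The 5 fat body markers summed to 12631, 8090 and 19.9 FPKM, and the 5 testis markers to 2365, 639 and 2.98 FPKM, in the same order. The part of these tissue differences in the levels below was not tested, and in pooled tissue a smaller share of cells of a type cannot be told apart from less RNA per cell.

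Most snRNA genes, which include some of the most abundant RNAs of any nucleus, were listed at 0 in these tables. Of the 62 members 57 were at 0 in the control, 50 under RNAi and 55 in the Yki library, which is 91.9%, 80.6% and 88.7% of them. Of all 13990 genes, 11.2%, 6.64% and 24.7% were at 0 in the same libraries. The 248 snoRNA genes, another class of short RNA, were at 0 in 87.1%, 68.1% and 67.7% of cases. Since genes that every cell uses are among them, a 0 is reported here only as a listed value and not as absence of the RNA. The tables hold no U2:34ABb, U6:96Ab or U6:96Ac gene, and those copies were not analysed here.

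Among the members detection rose with annotated length. Of the 60 members with a length in the RefSeq gene table, which ranged from 31 to 444 nt, the shortest one above 0 in any library had 123 nt. All 34 shorter members were at 0 in all 3 libraries, among them U6:96Aa, U6atac:29B and U7. Of the 26 members of at least 123 nt, 11 were above 0 somewhere. All 32 members under 100 nt were at 0, as were all 94 snoRNA genes of that length. From 130 to under 200 nt the classes parted, with 6 of 18 members but 91 of 106 snoRNA genes above 0 in some library. The 3 members of 200 nt or more, U11, U12:73B and 7SK, were all above 0 in the RNAi and Yki libraries. Among snoRNA genes of that length 3 of 6 were above 0 in some library, so in this class detection did not rise throughout, as the plot of detection by length shows.

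**Figure D1:**
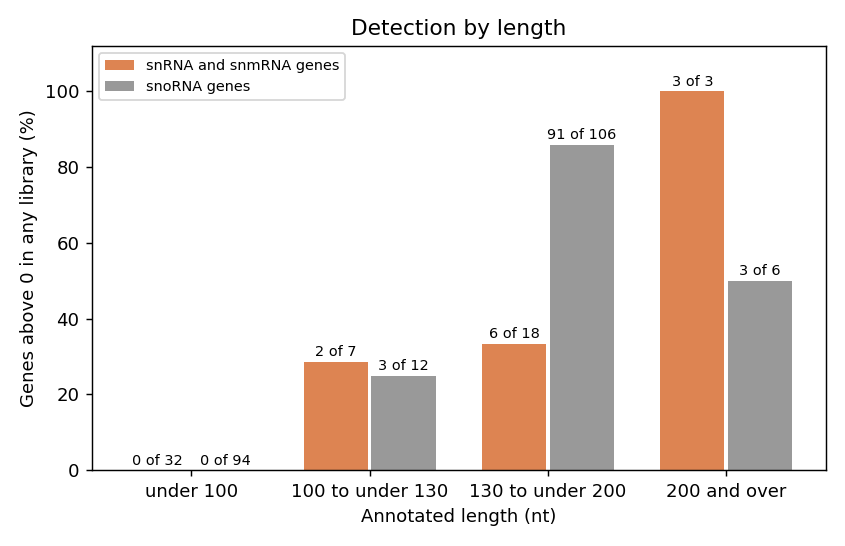
Percentage of genes above 0 FPKM in any of the 3 libraries, by annotated length in nt, for snRNA and snmRNA genes (orange) and snoRNA genes (grey). Numbers over the bars are genes above 0 of all genes in the class: 0 of 32 members under 100 nt were above 0, against 3 of 3 members of 200 nt or more.

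For short RNAs the FPKM values lay on a ladder, and the height of 1 rung depended on length and library. Among 19 snoRNA genes of exactly 140 nt, values were whole multiples of 58.9 FPKM in the control, 11.4 under RNAi and 20.1 in the Yki library, for 9 of 9, 14 of 15 and 12 of 12 values above 0 within 0.02 of a whole number. Each rung is read here as 1 fragment. A fragment therefore weighed 5.18 times as many FPKM in the control as in the RNAi library. The rung also grew steeply as the RNA shortened. In the RNAi library 1 fragment was worth 0.461 FPKM for U11 at 275 nt, 9.78 for U4:39B at 143 nt and 34.2 for U5:63BC at 123 nt. Over 147 snoRNA values of low level between 130 and 160 nt, 96.6% fell within 0.1 of a whole number, where 20% would by chance. Fragments could be read back for 9 of the 12 members above 0, and they give the counting error behind each level.

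**Figure D2:**
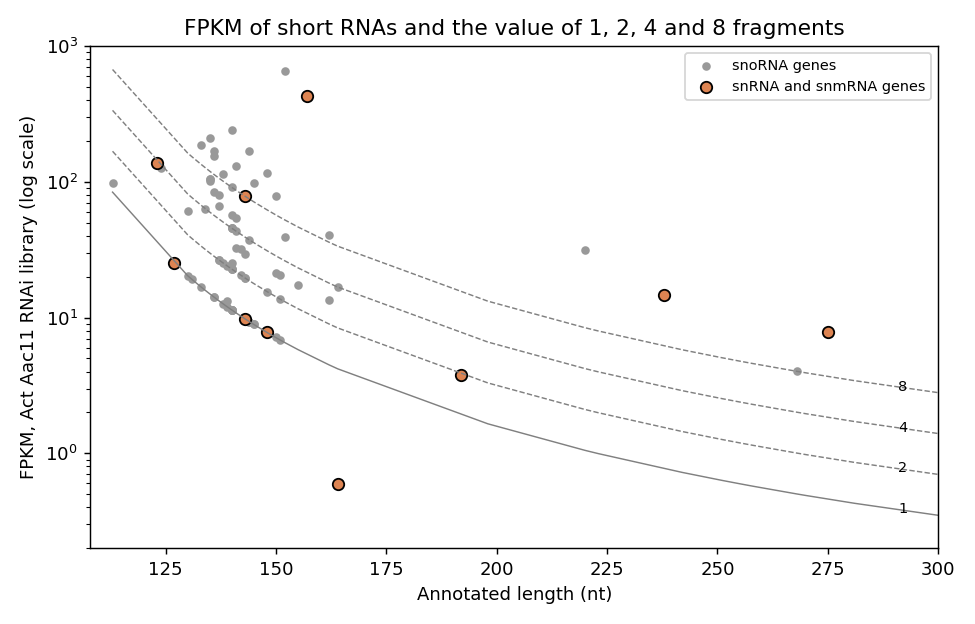
FPKM in the Act Aac11 RNAi library (log axis) against annotated length in nt, for snoRNA genes (grey) and snRNA and snmRNA genes (orange) below 300 nt. The solid line is the value of 1 fragment and the dashed lines are 2, 4 and 8 fragments: U4:25F, U4:39B and U5:38ABb sit on the 1-fragment line, and U1:82Eb lies below it.

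Of the 62 members, 11 had a mean of at least 1 FPKM over the Act libraries. On the log2 (FPKM + 1) scale 6 of these were at least 2-fold higher in the RNAi library, where 3.7% of all 11330 genes kept by the same filter were, and 2 were at least 2-fold lower, against 17% of all. All 6 that were higher were listed at 0 in the control, so they passed the filter through the RNAi library alone and had to be called higher. The snoRNA genes gave a like picture, with 53 of 82 kept genes higher, 16 lower and a median log2 ratio of 3.73. Nothing is therefore read from the share of members called higher. The other 3, U11, U12:73B and snmRNA:158, lay between the limits. The median log2 ratio of the 11 was 3.43 and that of all kept genes -0.03. When calls were limited to members whose fragments could be read back and reached at least 3 in 1 of the Act libraries, an alternative chosen after seeing the data, 2 were higher (U5:63BC and snmRNA:641) and 0 lower. Both of these were at 0 in the control and met the limit through the RNAi library alone, so they too had to be called higher. 7SK and U4atac:83A had no fragment reading and were left out of this count for that reason, while U4:39B and U5:38ABb had under 3 fragments. Over the 9 members with whole fragments, the control held 22 fragments, the RNAi library 132 and the Yki library 162. Scaled by the value of a fragment, the RNAi library held 1.16 times the control's, with an exact 95% interval of 0.734 to 1.91 that covers counting error only. Without snmRNA:158 the counts were 11, 53 and 132, and the ratio was 0.930 (0.480 to 1.97).

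**Figure D3:**
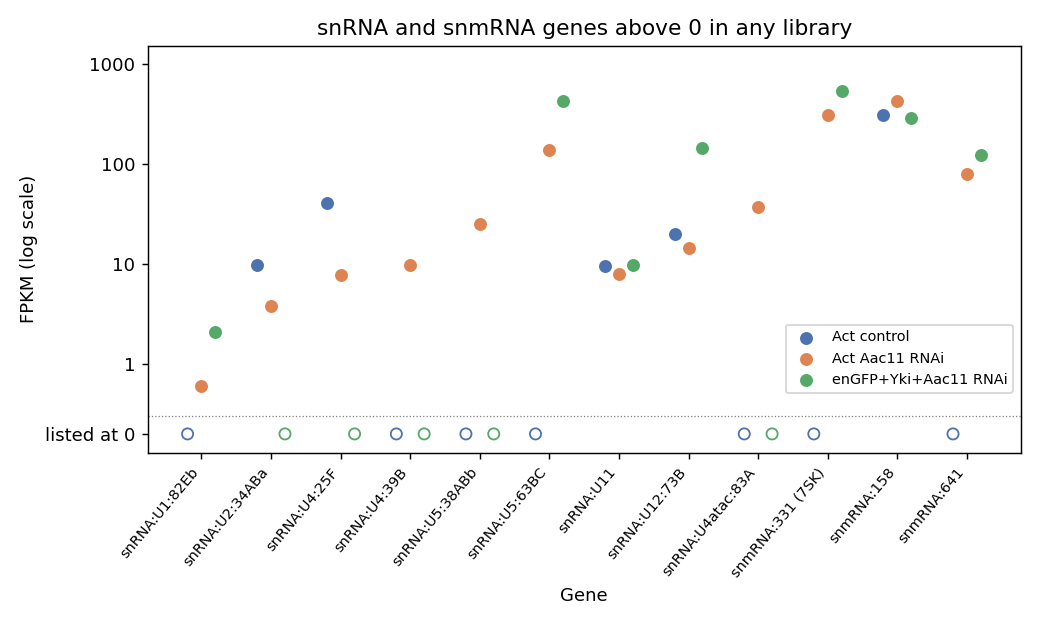
FPKM (log axis) of the 12 members above 0 in any library, in the Act control (blue), Act Aac11 RNAi (orange) and enGFP+Yki+Aac11 RNAi (green) libraries. Open circles on the lowest strip are values listed at 0: the control has 7 of them among these 12 genes, the RNAi library none and the Yki library 5.

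U1, which pairs with the 5′ splice site, was represented by 5 genes of 164 nt, and 4 of them were at 0 in all 3 libraries. U1:82Eb, on chromosome 3R at 4947933 to 4948096 of the dm6 build, measured 0 FPKM in the control, 0.595 under RNAi and 2.10 in the Yki library. At 164 nt these levels would equal 0.142 and 0.284 of a fragment, so fragments were not read back for U1:82Eb. In the RNAi library 0.595 FPKM is also the rung of CG42656, a gene of 255 nt chosen after its values were seen. Whether another length was used for U1:82Eb when the tables were made was not tested. At 164 nt a listed 0 allows up to 3 fragments by counting error, which is 65.1 FPKM in the control and 12.6 in the RNAi library. For U1:82Eb the limit would be smaller at a longer length, and the length used is not known. The U1 levels of the libraries therefore cannot be ordered.

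U2 binds the branch point. Of its 5 genes, U2:34ABa (2L, 13211925 to 13212116) alone was above 0, with 9.77 FPKM in the control, 3.77 under RNAi and 0 in the Yki library. The log2 ratio of -1.17 put it among the 2 lower members, but the levels stand for 1, 2 and 0 fragments. The FPKM ratio of 0.386 had an exact 95% counting interval of 0.0201 to 22.8, which spans no difference.

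U4 escorts U6 into the spliceosome and is released on activation. U4:25F, at 5565619 to 5565766 on 2L, was at 40.3 FPKM in the control, 7.77 under RNAi and 0 in the Yki library. Each Act value is the worth of 1 fragment in its library, so the log2 ratio of -2.23, the lowest of any member, compares 1 fragment with 1 fragment (FPKM ratio 0.193, interval 0.00246 to 15.1). It overlaps an exon of lncRNA:CR44794 on the opposite strand. U4:39B, in an intron of Atg18b, was at 9.78 FPKM or 1 fragment in the RNAi library and at 0 in the others. U4:38AB was at 0 throughout.

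U5 holds the exon ends together for ligation, and 2 of its 7 genes were above 0. U5:63BC (3L, 3090801 to 3090923), which overlaps no other annotated gene, measured 0 FPKM in the control, 137 under RNAi and 423 in the Yki library. These are 0, 4 and 7 fragments. A level of 4 RNAi fragments would be 0.772 fragments in the control, which is under 1. U5:38ABb, in an intron of sick, was at 25.1 FPKM in the RNAi library, again 1 fragment, and at 0 in the others. Where copies of U1, U2, U4 or U5 are alike in sequence, which was not compared here, reads can be split among them. The assignment to a single copy is therefore uncertain. Summed over all 21 genes of the major spliceosome, 2 fragments were read back in the control, 9 under RNAi and 7 in the Yki library.

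The minor spliceosome removes a small class of introns with their own splice site sequences. Its U11 and U12 snRNAs, single-copy and longer, were the snRNAs measured in every library. U11 (FBgn0083987, 3L, 3893056 to 3893330, 275 nt), which recognises the 5′ splice site of those introns, was at 9.55 FPKM in the control, 7.83 under RNAi and 9.77 in the Yki library, from 4, 17 and 12 fragments. The Act libraries did not differ beyond counting error, with an FPKM ratio of 0.820 (0.267 to 3.35). The log2 ratio of -0.26 became 0.03 with upper quartiles made equal, so its sign rests on the scaling. U11 lies in an intron of Fie on the opposite strand, and Fie measured 14.6, 8.05 and 0 FPKM in the same order.

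U12:73B (FBgn0041721, 3L, 16653769 to 16654006, 238 nt), which pairs with the branch point of the same introns, was at 19.8 FPKM in the control, 14.5 under RNAi and 143 in the Yki library. The 5 and 19 fragments of the Act libraries gave a ratio of 0.733 (0.265 to 2.51), again within counting error. In the Yki library it rested on 106 fragments, the most of any member with whole fragments there. Its rank moved from percentile 56.3 and 53.0 of all genes in the Act libraries to 94.8 in the Yki library, whereas U11 stood at 40.6, 40.1 and 56.0. The gene around it, Baldspot, lies on the opposite strand and measured 29.5, 44.0 and 31.8 FPKM. Because the Yki table was scaled separately and has no control of its own, the difference of U12 between tables was not tested.

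The U4atac:83A gene, the minor counterpart of U4, was at 37.2 FPKM in the RNAi library and 0 in the control and Yki libraries, with no annotated length to read fragments from. U4atac:82E and U6atac:29B were listed at 0 in all 3, as were U3:22A and U7.

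**Figure D4:**
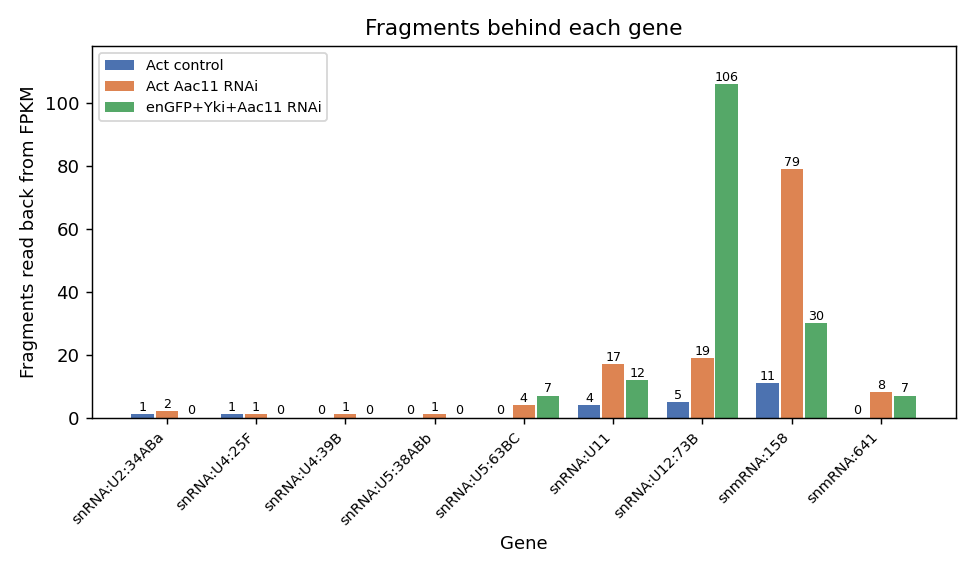
Number of fragments read back from the FPKM values (linear axis from 0) for the 9 members with whole fragments, in the Act control (blue), Act Aac11 RNAi (orange) and enGFP+Yki+Aac11 RNAi (green) libraries. The U12:73B bar of the Yki library stands at 106 and the snmRNA:158 bar of the RNAi library at 79, while U2:34ABa, U4:25F, U4:39B and U5:38ABb never pass 2.

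7SK (snmRNA:331, FBgn0065099, 3R, 7474553 to 7474996) was listed at 0 FPKM in the control, at 304 under RNAi and at 538 in the Yki library. These levels stand at percentiles 97.6 and 98.8 of all genes in the last 2 libraries. The ranks rest on a fragment number that could not be read back. To compare fragment numbers, and not levels, the values of both tables were divided. The Yki value is 1.7673 times the RNAi value, and 1 fragment in the Yki library is worth 1.7673 times 1 fragment in the RNAi library, the relation that equal numbers of fragments would give. The number itself depends on the transcript length used when the tables were made, which no source used here states. At the annotated 444 nt it would be 2223 fragments. The RNAi level would then equal 429 fragments in the control, above the 3 that a count of 0 allows. At a shorter length both numbers would be smaller, since 1 RNAi fragment was worth 34.2 FPKM at 123 nt. The control's 0 therefore cannot be set against counting error. Whether the listed 0 is a count or a failed estimate was not tested. RNaseP:RNA, the RNA part of the enzyme RNase P, was above 0 in all libraries at 31.3, 28.0 and 50.2 FPKM. The related RNaseMRP:RNA was at 29.2, 58.2 and 8.30.

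The snmRNA genes were named from cloned small RNAs and have no assigned function that the tables give. Only 2 of the 33 other than 7SK were above 0. snmRNA:158 (FBgn0065104, 2L, 5206205 to 5206361, 157 nt) was the highest member of the control at 307 FPKM, with 426 under RNAi and 286 in the Yki library. Its 11, 79 and 30 fragments gave an Act ratio of 1.39 (0.734 to 2.89), so the libraries did not differ beyond counting error. It lies on the same strand within the 3′ untranslated region of Msp300, a giant protein that links nuclei to the cytoskeleton in muscle, whose own level was 10.9, 6.71 and 8.59 FPKM. snmRNA:641 (FBgn0065088, 3L, 17668588 to 17668730, 143 nt) was at 0, 78.3 and 121 FPKM, from 0, 8 and 7 fragments. Its RNAi level would be 1.54 fragments in the control. It lies in the 5′ untranslated region of Crtc, a CREB coactivator, which measured 8.05, 12.0 and 15.6 FPKM.

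Across the 4 members listed at 0 in the control with whole fragments in the RNAi library (U4:39B, U5:38ABb, U5:63BC and snmRNA:641), 14 RNAi fragments would amount to 2.70 in the control, between 0.193 and 1.54 for each gene. Each gene's number lies under the 3 fragments that a count of 0 allows. These 4 were taken for their 0 in the control, so no conclusion is drawn from the sum. Together with 7SK and U4atac:83A they are the 6 members called higher.

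Position set the snmRNA genes apart from the snRNA genes in the annotation. Of the 34 snmRNA genes, 33 overlapped another gene, 31 of them inside an exon on the same strand and 2 in an intron, and 7SK was the exception. All 17 copies of snmRNA:430, each 36 nt long, lay within a His2A exon on the same strand, spread over the histone gene array of 2L between 21423876 and 21538402 with a median spacing of 5045 bases. All 17 were listed at 0 in all libraries. Msp300 held snmRNA:128 and snmRNA:765 in its coding sequence besides snmRNA:158, and both were at 0. Reads from such a gene and from its host cannot be told apart. Of the 26 snRNA genes found in the annotation, 16 overlapped another gene, and U2:38ABa, U2:38ABb, U4:38AB, U5:38ABa and U5:38ABb all stood within introns of sick, which measured 18.1, 25.0 and 10.4 FPKM. Of these 5, U5:38ABb was above 0.

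Guide RNAs that modify snRNAs are now named scaRNA, and 3 of them stand in the tables under snoRNA symbols. snoRNA:MeU5-C46, which guides a methylation of U5, was at 15.7 FPKM in the control, 12.1 under RNAi and 21.4 in the Yki library. snoRNA:MeU5-U42, of 111 nt, was at 0, 0 and 229 FPKM, and snoRNA:MeU2-C28 at 0 in all 3. For a snoRNA of 113 nt a fragment was worth 97.4 FPKM in the RNAi library. A fragment in the Yki library is worth 1.7673 times as much, and the worth grows as the RNA shortens. The 229 FPKM of snoRNA:MeU5-U42 therefore stands for very few fragments, and its levels are not ordered between libraries here.

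The protein genes that make, assemble or accompany these RNAs passed the filter in all but 1 case. The 5 lists held 81 genes, 80 of them kept, and 0 were at least 2-fold higher or lower in the RNAi library, where 3.7% and 17% of all kept genes were. Of all 11330 kept genes, 5956 had a log2 ratio below 0 and 5374 above 0, which is the share to set beside the counts of each list. The Sm and LSm ring proteins had the narrowest spread. Their 17 genes had a median log2 ratio of -0.17, with 16 of 17 below 0, beside -0.03 for all kept genes. With upper quartiles made equal these medians became 0.15 and 0.26, so the sign for the ring proteins rests on the scaling, while they lay below the median of all genes under both. SmG, the highest of them, measured 239 FPKM in the control, 213 under RNAi and 399 in the Yki library, and SmE 202, 183 and 308. Lsm10 and Lsm11, which replace SmD1 and SmD2 in the U7 ring, had 8.11 and 10.1 FPKM in the control and log2 ratios of -0.30 and 0.18.

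Proteins specific to single snRNPs had a median log2 ratio of -0.03 over 22 genes, of which 10 were above 0, and the median turned to 0.02 with the median ratio of higher expressed genes set to 0, 0.10 with equal sums and 0.28 with equal upper quartiles. The highest were CG13298, the fly Sf3b6 subunit of the U2 particle, at 311, 348 and 180 FPKM, and U2af50, which reads the polypyrimidine tract, at 130, 131 and 154. Genes for snRNA transcription and 3′ end processing, mostly subunits of the Integrator complex that cleaves nascent snRNAs, had a median of 0.12 over 21 genes with 13 above 0. CG17665, the Integrator subunit IntS3, measured 46.7, 58.3 and 52.0 FPKM, and Su(Tpl), an elongation factor, measured 24.5, 30.3 and 41.5.

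Assembly and transport genes had a median of -0.20 over 14 kept of 15, with 10 below 0, and the median turned to 0.11 with equal upper quartiles. Smn, the core of the complex that loads Sm rings, measured 94.5 FPKM in the control, 80.3 under RNAi and 104 in the Yki library, and Cbp20, a subunit of the nuclear cap-binding complex, 98.3, 69.9 and 102. CG42303, the fly Snup gene for an snRNA import adaptor and chosen after its values were seen, had the lowest log2 ratio of the 5 lists, -0.82, from 10.2 and 5.34 FPKM.

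The 7SK particle and P-TEFb list, 6 genes, had a median of -0.06, which turned to 0.07 with equal sums and 0.24 with equal upper quartiles. CG3508, the fly Hexim that inhibits P-TEFb when bound to 7SK, measured 33.9 FPKM in the control, 29.3 under RNAi and 46.6 in the Yki library. Cdk9, the kinase, measured 32.3, 30.6 and 25.2. Hexim, CycT, Cdk9 and CG42569 (Larp7) had log2 ratios between -0.21 and -0.05. bin3, also of this list and chosen after its values were seen, had 0.57, from 19.1 and 28.9 FPKM. 7SK was listed at 0 in 1 Act library and at 304 FPKM in the other, from an unknown number of fragments. fs(1)h, a bromodomain protein that recruits P-TEFb and chosen after its values were seen, had the highest ratio of the 5 lists, 0.92, from 13.3 and 25.9 FPKM, and it passed 2-fold when libraries were rescaled to equal sums or upper quartiles.

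**Figure D5:**
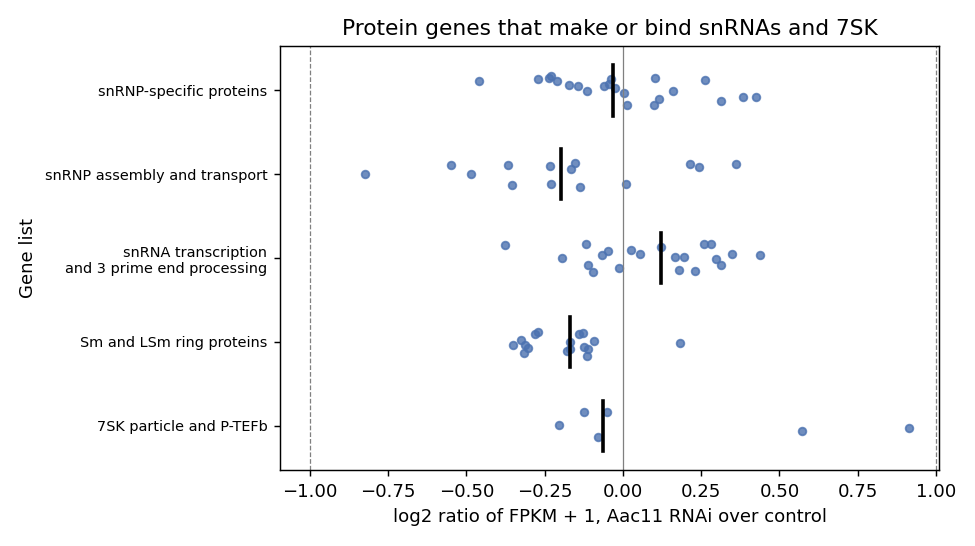
Log2 ratio of FPKM + 1, Act Aac11 RNAi over Act control, for the 80 kept protein genes of 5 lists (1 point per gene, shifted vertically to separate points). Black bars are list medians, from -0.20 to 0.12, and dashed lines mark 2-fold: no point lies past them, and fs(1)h at 0.92 comes nearest.

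Most of the same protein genes ranked higher among all genes in the Yki library. The percentile was above that in both Act libraries for 76 of the 80 kept genes, and Cdk9, CG13298, CG17665 and Dim1 were the exceptions. How many of all genes rose in rank was not counted, so this number is not read as a trait of these genes. The median percentile of the Sm and LSm genes was 95.2 there, against 89.9 in the control and 88.9 in the RNAi library, and that of the snRNP-specific genes 88.4 against 74.3 and 77.0. Genes for snRNA transcription and 3′ end processing stood at 67.2 against 46.5 and 48.6. In the Yki library the median of all genes was 3.52 FPKM, against 15.4 in the control and 12.7 under RNAi. Ranks are therefore higher there at an equal level: U11 stood at percentile 40.6 with 9.55 FPKM in the control and at 56.0 with 9.77 FPKM in the Yki library. In that library 24.7% of all genes were at 0 and the 4 muscle markers summed to 2.96 FPKM, against 279 and 149 in the Act libraries. The part of these differences in the ranks was not tested.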

How the data were processed

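The authors deposited FPKM values for 3 libraries in 2 tables. Cuffdiff 2.2.1, TopHat2 2.0.12, CASAVA 1.4 and the build dm6 are named in the submitters' processing notes. No source used here states the annotation, the strand setting or how reads matching several copies were treated. Members and lists were chosen with earlier results of these data known. Ratios are log2 of (RNAi FPKM + 1) over (control FPKM + 1), for genes that averaged at least 1 FPKM in the Act libraries, and a call is 2-fold. No test was possible with 1 library per group.

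Depth came from 4394 genes of at least 1000 nt, whose low values lay within 0.2 of a whole fragment in 79.5% to 88.0% of cases, where 40% would by chance. Reading fragments of shorter genes departs from the planned design, which used longer genes, and was chosen after seeing the data. The value of 1 fragment was fitted as a polynomial of degree 5 in log length over 151 genes of 110 to 450 nt that are not members, and its ratio between libraries came from 140 nt snoRNAs. Intervals are exact Clopper-Pearson 95% intervals of the fragments, converted to FPKM ratios. The limit of a listed 0 is 3 fragments, and both cover counting error only.

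Lengths and names came from the NCBI RefSeq table (Release 6), and positions from Ensembl 115, both in dm6 coordinates. Named genes were every member of at least 10 FPKM in any library or alone in its family, the host genes of members printed in full, Aac11, and from each protein list the 2 of highest mean, since none passed 2-fold. Further genes are said to be chosen after their values were seen, except the RNase P and MRP, guide RNA, Lsm10, Lsm11 and Larp7 genes and U2:34ABa and U1:82Eb, which were added for their role. Calculations used Python 3.11.15, numpy 2.4.6, pandas 2.3.3 and scipy 1.17.1. The fragment reading and the calls were also run on simulated data. The simulated calls used well expressed genes only, so they do not cover members that rest on few fragments.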

Additional observations from a re-analysis of the deposited data

How the results depend on the processing

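The 6 members called higher stayed 6 under the planned settings other than the filter at 5 FPKM, which left out U4:39B and gave 5. They became 2 when a fragment reading of at least 3 was required, which left out 7SK and U4atac:83A for want of a reading. All 6 were at 0 in the control, so none of these counts checks the calls. The 2 called lower became 1 with a pseudocount of 5 FPKM or with equal upper quartiles, and 0 with a reading of at least 3. The median log2 ratio of the kept members, 3.43, was 6.63 and 1.56 with pseudocounts of 0.1 and 5 FPKM, 0 without the filter, 2.59 with a filter at 5 FPKM, 3.67 with equal sums and 3.72 with equal upper quartiles. It follows the pseudocount because 6 of 11 control values are 0. In the 7SK and P-TEFb list 1 gene passed 2-fold upward under equal sums and under equal upper quartiles. Equal upper quartiles moved the median of all kept genes to 0.26 and equal sums to 0.10, and all-gene calls higher went from 419 to 802 under the former and to 245 with a pseudocount of 5 FPKM. The list medians rose with the same scalings, to between -0.07 and 0.25 under equal sums and between 0.11 and 0.41 under equal upper quartiles, where all 5 were above 0. The log2 ratio of U11, not called, changed sign from -0.26 to 0.03 under equal upper quartiles, and the other named members with a ratio kept theirs. No paired analysis was possible because each group has 1 library, and no library could be left out. The planned comparisons of sequence identity between copies and of promoter motifs were not run. Depth limits most members, since 1 control fragment is worth 50.7 FPKM at 143 nt.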
